A study of Macaca fascicularis and Mus musculus with 42 samples.

Results

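The BCL2 family of apoptosis regulators was followed here through the induction of germ cell-like cells from embryonic stem cells (ESC) of the cynomolgus monkey (Macaca fascicularis). The members were chosen by gene symbol: BCL2, BCL2L1, MCL1, BAX, BAK1, BBC3, PMAIP1, BCL2L11, BIK and BMF. Of these 10 symbols, 9 had an entry among the 26018 genes of the monkey table, and the mouse orthologs of all 10 had one among 34896 genes. BAK1 had no monkey entry under its symbol or gene identifier and is not analysed in monkey.

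Proteins of this family decide whether the outer membrane of the mitochondria is opened, the step that releases cytochrome c and starts the caspase cascade. The guardians BCL2, BCL2L1 (whose main product is BCL-XL) and MCL1 hold the pore-forming effectors BAX and BAK1 in check. The BH3-only proteins BBC3 (PUMA), PMAIP1 (NOXA), BCL2L11 (BIM), BIK and BMF bind the guardians or activate the effectors, and PMAIP1 binds chiefly MCL1. Early germ cells are known to depend on this balance, since germ cells that stray or fail are removed by apoptosis that needs BAX.

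The series holds 42 bulk libraries of transcript 3′ ends, 38 of monkey and 4 of mouse, and levels are given in RPM, the reads of a gene scaled to a common total for each library. Monkey ESC were aggregated with BMP4, SCF, EGF, LIF and Y27632, an inhibitor of the kinase ROCK, in 1 of 2 media: GK15, based on GMEM with the serum replacement KSR, or aRB27, based on Advanced RPMI1640 with the supplement B27. The induced cells kept for the comparisons came from a single reporter line, 656BTAG42, which carried Blimp1-tdTomato and TFAP2C-EGFP, reporters of transcription factors that mark early germ cells (Blimp1 is also called PRDM1). BTAG positive cells are read here as positive for both reporters, BT single positive cells as positive for Blimp1-tdTomato alone, and AG mid positive cells as having intermediate TFAP2C-EGFP. The kept BTAG positive libraries numbered 1, 1, 2, 2 and 2 on days 2, 4, 6, 8 and 10 in GK15, and 2, 2 and 3 on days 2, 4 and 6 in aRB27. There were 3 BT single positive libraries (aRB27, 1 on day 2 and 2 on day 4) and 2 AG mid positive libraries (aRB27 day 2 and GK15 day 4). Of the 4 kept reporter ESC libraries, number 2 came from the line 656BTAG63 and the others from 656BTAG42. All monkey ESC were kept in the condition labelled AITS+IF20 (AITS medium with bFGF and the WNT pathway inhibitor IWR1), and 5 ESC libraries came from lines without transgenes (CMK6 with 2 libraries, 656, 681F and 22). Mouse germ cell-like cells of the line R8, with Blimp1-membraneVenus and Dppa3-ECFP, were induced from epiblast-like cells with the same factors in GK15 and gave 2 libraries each on days 4 and 6. Whether the libraries of a group came from separate cultures is not given in the labels, and p-values therefore measure only the spread between these samples, which may be technical.

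Before any comparison, 9 of the 33 reporter-line libraries were left out because their labels are doubtful. Of these, 6 held PRDM1 levels opposite to their gate or stage: 0 to 4.9 RPM in 3 labelled GK15 BTAG positive, and 145 to 253 RPM in 3 labelled ESC or AG mid positive. The other 3, labelled aRB27 BTAG positive (day 6 library 2, day 8 and day 10), held 135 to 194 RPM, inside the range of their gate, and were left out by the same list of libraries. Day 6 library 2 of aRB27 and of GK15, both left out, came from the line 656BTAG63. Fits with every library as labelled thus hold induced cells of both lines. The 18 kept libraries sorted for the PRDM1 reporter held 85.1 to 318 RPM, and the 6 kept ESC and AG mid libraries 0 to 11.1 RPM. Germ cell markers (8 genes, among them SOX17, KIT and NANOS3) summed to 1588 to 2318 RPM in the 15 kept BTAG positive libraries and to between 11 and 37.5 RPM in the reporter ESC, where NANOS3 was at 0. Members of the family were mixed in the left-out libraries. PMAIP1 was 42 RPM and BMF 44.4 RPM in that labelled reporter ESC library 5. In those labelled GK15 BTAG day 2, day 4 and day 6 library 2, PMAIP1 was 156, 274 and 484 RPM, whereas BMF was 55.95, 63.95 and 6.97 RPM. Results below rest on the 24 kept libraries, and the counts with every library as labelled stand beside them. In the kept libraries 1 read stood for 0.147 RPM in the deepest and 0.929 RPM in the shallowest. In bulk RNA, fewer cells of a type and less RNA per cell cannot be told apart.

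**Figure D1:**
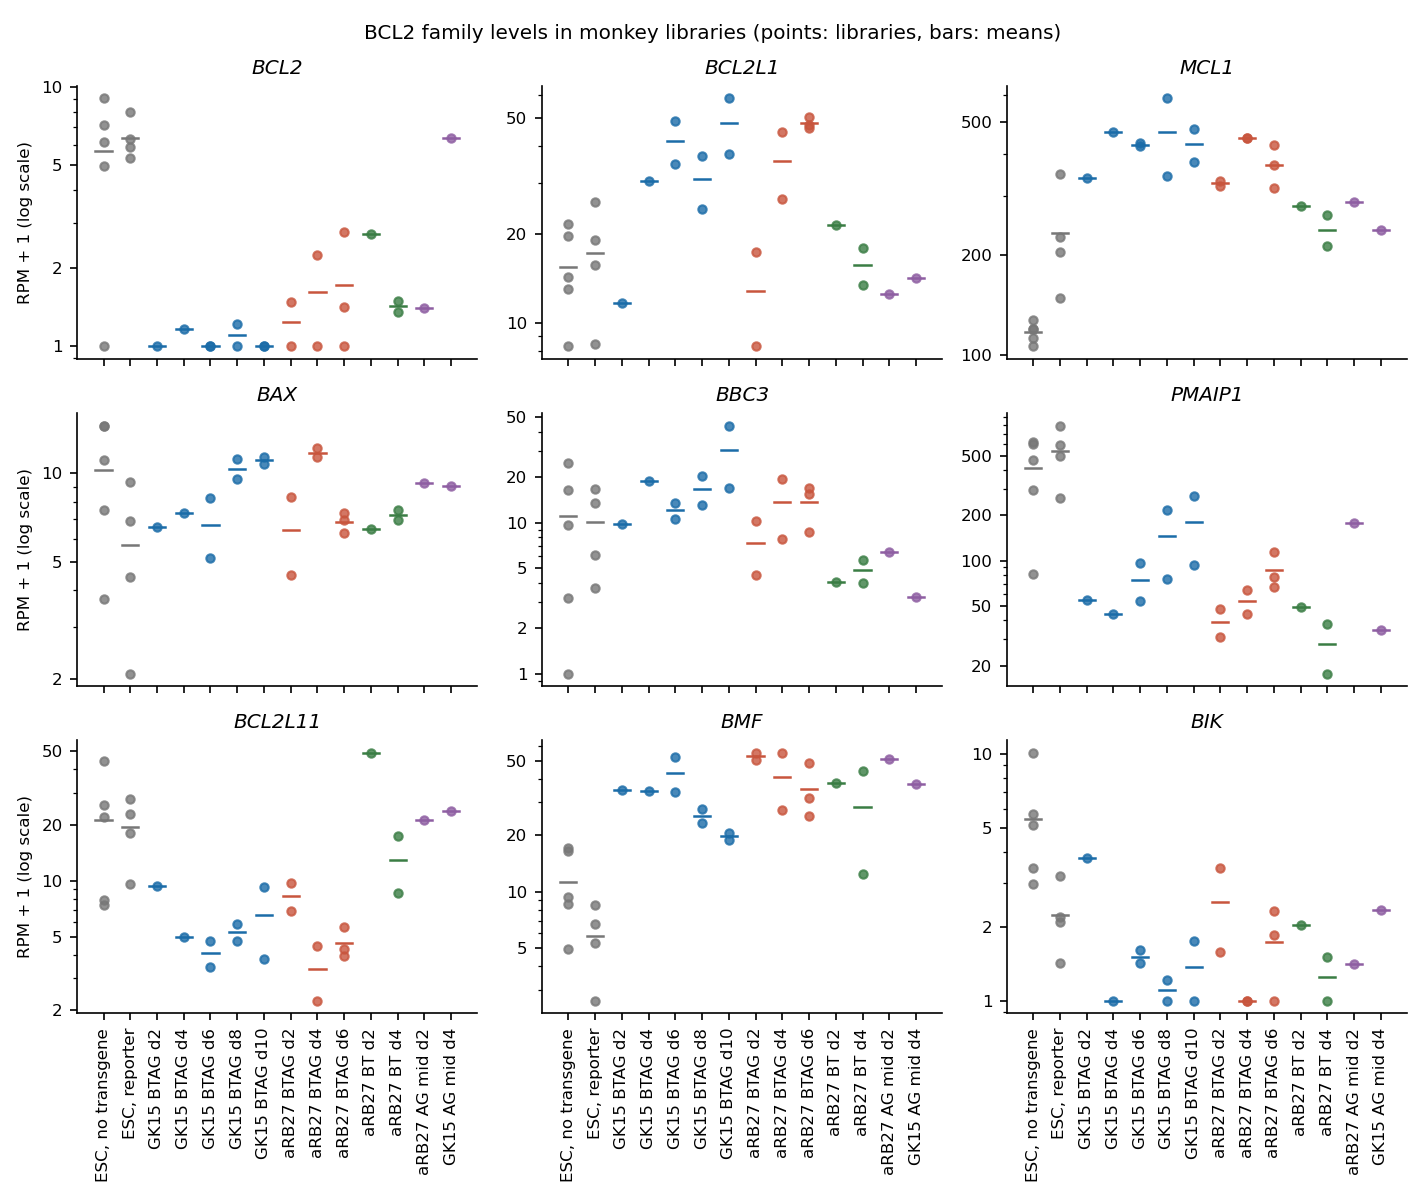
Level of each of the 9 measured members (RPM + 1, log scale) in every kept monkey library, by group on the horizontal axis. Points are libraries and short bars are group means. PMAIP1, BCL2L11 and BCL2 sit low in BTAG positive cells relative to reporter ESC. BMF and, after day 2, BCL2L1 sit high. PMAIP1 climbs again after day 2 and is highest in library 2 of day 8 and of day 10. Library 1 of these days, at 74.3 and 92.7 RPM, lies within the range of day 6.

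Between ESC and BTAG positive cells, single members of the family moved in opposite directions. Whether the family shifted as a whole was not tested. A call required a log2 difference of at least 1 in size and a limma p under 0.05 after Benjamini-Hochberg adjustment over all genes tested. Of the 9 measured members, 7 passed the filter of 10 RPM in at least 2 libraries. BCL2 and BIK stayed under it. Among the kept reporter-line libraries, BAX reached 10 RPM in BTAG positive libraries alone. BMF did so in induced cells alone, and BCL2L11 in ESC, BT single positive and AG mid libraries alone. These members thus entered the test through the groups where they were high. On day 2, with both media averaged, 1 of the 7 tested members was called higher and 1 lower, beside 16% of all 10701 genes tested called in either direction (10.5% higher and 5.51% lower). On day 6 in GK15, 2 were called higher and 2 lower, beside 24.8% of all genes called (14% higher and 10.8% lower). In aRB27 on day 6, 2 were again called higher and 2 lower, beside 25.9% (12.8% higher and 13.1% lower). By days 8 and 10 in GK15, 4 were called higher and 2 lower, beside 31.1% (15.4% higher and 15.7% lower). The median log2 difference of the 7 tested members was -0.05 on day 2, 0.50 in GK15 and 0.64 in aRB27 on day 6, and 1.12 on days 8 and 10, beside 0.05, 0.01, -0.08 and -0.09 over all genes tested. With every library as labelled, 1 member was called on day 2, 0 in GK15 on day 6, 4 in aRB27 on day 6 and 3 on days 8 and 10. Fitted without the filter, 1 member was called higher and 2 lower on day 2. In that fit 2 were higher and 3 lower on day 6 in each medium, and 3 higher and 3 lower on days 8 and 10. The share of all genes called is not given for it. The 4 comparisons share the same ESC libraries.

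**Figure D2:**
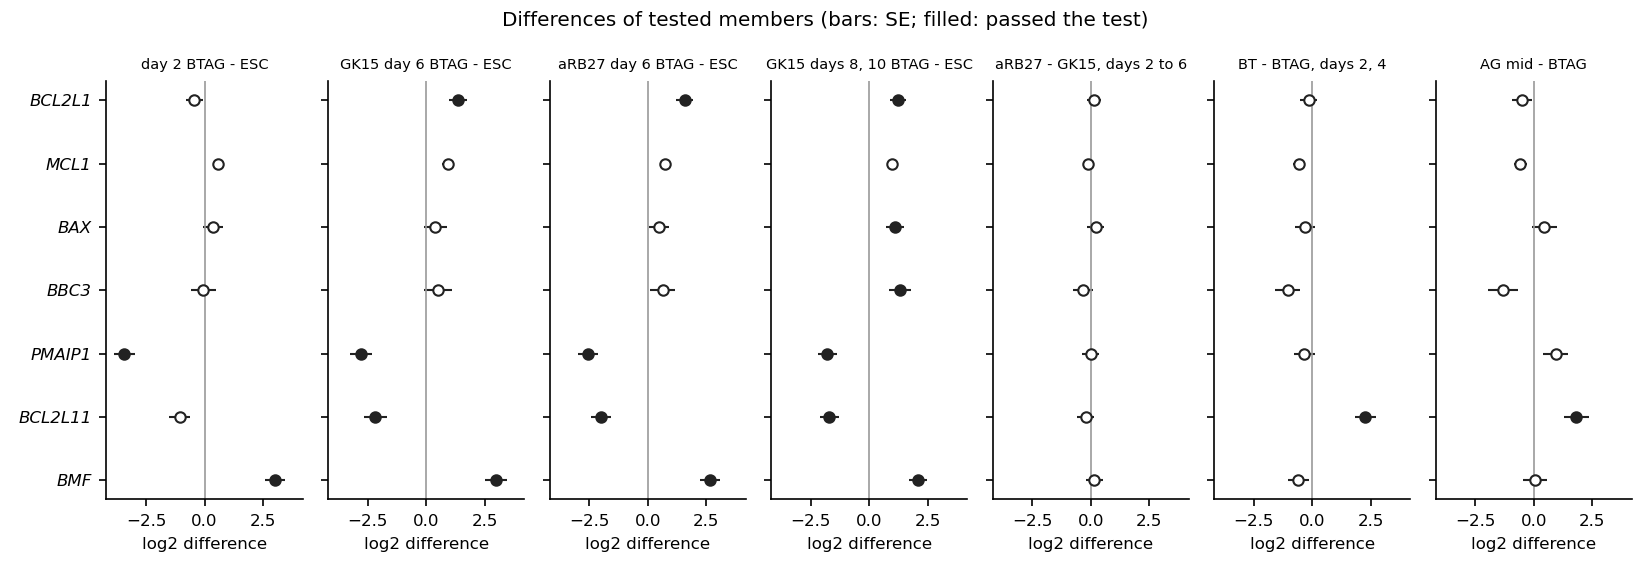
Log2 difference on the log2(RPM + 1) scale (horizontal axis, bars are SE) of the 7 tested members in 7 comparisons. Filled points passed the test; BMF lies right and PMAIP1 left of 0 in the 4 comparisons with ESC, while BCL2L11 lies left of 0 there and right of 0 in the 2 comparisons of gates.

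Among the guardians, BCL2L1 was called higher on day 6 and on days 8 and 10, while MCL1 differed by less than the size asked for and BCL2 was close to the limit of detection in BTAG positive cells. BCL2L1 (gene identifier 102140222 in the table) stood at 18.1, 14.7, 7.47 and 24.8 RPM in reporter ESC libraries 1 to 4. On day 2 it was 16.4 and 7.31 RPM in aRB27 and 10.7 in GK15. On day 4, which was not tested against ESC, it was 29.3 RPM in GK15 and 43.8 and 25.5 in aRB27. Every day 4 library lay above every ESC library. On day 6 it was 47.9 and 33.8 RPM in GK15 and 45.3, 49.3 and 46.3 in aRB27. Every day 6 library also lay above every ESC library, whereas those of day 2 lay within or just below the ESC range. The log2 difference from ESC was -0.43 ± 0.37 (SE) on day 2 (limma adjusted p = 0.455), 1.37 ± 0.40 on day 6 in GK15 (limma adjusted p = 0.0137) and 1.58 ± 0.36 in aRB27 (limma adjusted p = 0.00165). For days 8 and 10 it was 1.23 ± 0.33 (limma adjusted p = 0.00445), from 36.2 and 23.5 RPM on day 8 and 36.7 and 57.3 on day 10. Here 1 day 8 library fell within the ESC range. Leaving out GK15 BTAG day 6 library 1 ended the GK15 day 6 call (log2 1.12, limma adjusted p = 0.155), and a pseudocount of 10 put the difference under the size threshold on day 6 in GK15 (0.98) and on days 8 and 10 (0.88). Leaving out reporter ESC library 3, the lowest of the ESC libraries, brought the difference of days 8 and 10 under the size threshold (log2 0.93). The left-out libraries labelled aRB27 BTAG day 6 library 2, day 8 and day 10 held 45.5, 44.5 and 55.5 RPM of BCL2L1.

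MCL1 (101925224) was plentiful in every library. Reporter ESC libraries 1 to 4 held 203, 347, 147 and 225 RPM. The 15 BTAG positive libraries ran from 315 to 587 RPM with a median of 421. Only ESC library 2, the one from 656BTAG63, reached into the BTAG range. The log2 difference was 0.59 ± 0.24 on day 2 (limma adjusted p = 0.0876), 0.95 ± 0.26 on day 6 in GK15 (limma adjusted p = 0.00894), 0.74 ± 0.23 in aRB27 (limma adjusted p = 0.0167) and 0.99 ± 0.21 on days 8 and 10 (limma adjusted p = 0.000867). The last 3 passed the adjusted p but not the size threshold. Without ESC library 2 MCL1 passed both in GK15 on day 6 (log2 1.17) and on days 8 and 10 (log2 1.2). In the latter comparison it also passed both thresholds without GK15 BTAG day 8 library 2 (1.18) or day 10 library 2 (1.07). The same held with edgeR (1.06) or DESeq2 (1.04) on the recovered reads, and with median-of-ratios scaling (1.07). It held as well with the code in the library titles as a covariate (1.12) and in libraries of the code MS162 alone (1.26). In these MS162 libraries the aRB27 day 6 difference passed both too (1.01), and that of the lone GK15 day 6 library was 1.21.

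BCL2 (102138212), the founding member, was low everywhere and lowest in BTAG positive cells. It was 5.3, 4.32, 7.03 and 4.85 RPM in reporter ESC libraries 1 to 4, from 71 reads together. Among the 15 BTAG positive libraries it was at 0 in 9 and reached 1.76 RPM, with 9 reads in all. No BTAG positive library overlapped the ESC range. Where every library of a group was at 0, BCL2 was at least 7.23-fold lower than the ESC mean on day 6 in GK15, at least 4.94-fold lower on day 10 and at least 3.83-fold lower on day 2 in GK15. These bounds use a floor of 3 reads over the group and cover counting error only, since PCR copies are not independent molecules. Fitted without the filter on low values, BCL2 was called lower on day 2 (log2 -2.51 ± 0.34), on day 6 in GK15 (-2.66 ± 0.38) and aRB27 (-2.0 ± 0.33) and on days 8 and 10 (-2.58 ± 0.31), with limma adjusted p = 0.000379, 0.000367, 0.00097 and 4.91e-05.

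The effector BAX (102132255), which forms the membrane pore, did not pass the test against ESC on day 2 or day 6. It was 5.88, 3.45, 8.35 and 1.08 RPM in reporter ESC libraries 1 to 4. On day 6 it was 4.16 and 7.23 RPM in GK15 and 6.35, 5.28 and 5.95 in aRB27. These values lay inside the ESC range. In GK15 on days 8 and 10 it was 10.2, 8.56, 10.4 and 9.8 RPM, each above the reporter ESC libraries. The ESC libraries without transgenes held 2.73 to 13.6 RPM, a range that covers these values. Against reporter ESC the log2 difference on days 8 and 10 was 1.12 ± 0.39 (limma adjusted p = 0.0245). That call was lost without reporter ESC library 2 (1.07, limma adjusted p = 0.0523), without ESC library 4 (0.70), without GK15 BTAG day 8 library 1 (1.06) without GK15 BTAG day 10 library 1 (1.1), and with edgeR on the recovered reads (1.1, edgeR adjusted p = 0.0512). The levels rest on 240 reads over the 15 BTAG positive libraries. Day 4 in aRB27, which was not tested against ESC, held 10.4 and 11.2 RPM of BAX.

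PMAIP1 (102120192), the BH3-only partner of MCL1, had the largest decrease among the 7 tested members in each of the 4 comparisons with ESC. It was 498, 585, 789.9 and 258 RPM in reporter ESC libraries 1 to 4. On day 2 it was 29.8 and 46.3 RPM in aRB27 and 53.9 in GK15. On day 6 it was 94.9 and 52.4 RPM in GK15 and 77, 114 and 65.5 in aRB27. All these BTAG positive libraries lay below the lowest ESC library. The log2 difference from ESC was -3.43 ± 0.44 on day 2 (limma adjusted p = 1.14e-05), which is a 10.8-fold decrease, -2.79 ± 0.49 on day 6 in GK15 (limma adjusted p = 0.000188) and -2.56 ± 0.43 in aRB27 (limma adjusted p = 0.000105). In GK15 the libraries of days 8 and 10 divided: PMAIP1 was 74.3 and 92.7 RPM in library 1 of each day, and 215 and 268 RPM in library 2 of each day. The last of these reached the lowest ESC library, and the log2 difference was -1.80 ± 0.40 (limma adjusted p = 0.00101). Taking every library as labelled, PMAIP1 was called in aRB27 on day 6 but not on day 2 (log2 -2.35, limma adjusted p = 0.104), not in GK15 on day 6 (-1.16, limma adjusted p = 0.441) and not on days 8 and 10 (-1.09, limma adjusted p = 0.263). The left-out aRB27 libraries of day 6, day 8 and day 10 held 46.3, 109 and 62 RPM, all below ESC.

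Because PMAIP1 binds MCL1, the ratio of their levels within a library is given as a description. MCL1 over PMAIP1 was 0.186 to 0.873 in the 4 reporter ESC libraries and 0.177 to 1.48 in the 5 ESC libraries without transgenes. It was 6.26 to 11.2 in the 3 BTAG positive libraries of day 2 and 2.77 to 8.04 in the 5 of day 6. On days 8 and 10 it ran from 1.41 to 7.90. The BTAG positive libraries thus overlapped with none of the reporter ESC and, on days 8 and 10 alone, with 1 library without transgenes. Transcript ratios between genes depend on how well the 3′ end of each is captured, so the ratio is compared between libraries only.

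BMF (102132688), a BH3-only protein tied to the cytoskeleton, moved opposite to PMAIP1. Reporter ESC libraries 1 to 4 held 7.5, 4.32, 5.71 and 1.62 RPM. On day 2 BMF was 53.8 and 49.7 RPM in aRB27 and 33.9 in GK15. On day 6 it was 51.2 and 33.2 RPM in GK15 and 30.47, 47.5 and 24.5 in aRB27. No kept BTAG positive library, on any day, came down to the ESC range. The log2 difference was 3.01 ± 0.44 on day 2 (limma adjusted p = 4e-05), an 8.08-fold increase, 2.99 ± 0.48 on day 6 in GK15 (limma adjusted p = 7.3e-05), 2.67 ± 0.42 in aRB27 (limma adjusted p = 5.29e-05) and 2.08 ± 0.39 on days 8 and 10 (limma adjusted p = 0.000226). As labelled, with no library left out, it was still called on day 2 and in aRB27 on day 6, but not in GK15 on day 6 (1.57, limma adjusted p = 0.223) or on days 8 and 10 (1.46, limma adjusted p = 0.067).

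BCL2L11 (102135074), whose product BIM binds all the guardians, was called lower in BTAG positive cells on day 6 and on days 8 and 10. It was 17.1, 26.8, 21.98 and 8.62 RPM in reporter ESC libraries 1 to 4. On day 2 it was 5.84 and 8.77 RPM in aRB27 and 8.37 in GK15, which touched the lowest ESC library. On day 4, which was not tested against ESC, it was 4.0 RPM in GK15 and 3.45 and 1.25 in aRB27, all below the ESC range. On day 6 it was 3.75 and 2.41 RPM in GK15 and 4.65, 2.93 and 3.31 in aRB27, all below the ESC range. In GK15 it was 3.71 and 4.83 RPM on day 8 and 2.77 and 8.3 on day 10, the last just below the lowest ESC library. The log2 difference was -1.06 ± 0.44 on day 2 (limma adjusted p = 0.0989), -2.18 ± 0.49 on day 6 in GK15 (limma adjusted p = 0.00178), -2.0 ± 0.43 in aRB27 (limma adjusted p = 0.00111) and -1.71 ± 0.40 on days 8 and 10 (limma adjusted p = 0.0015). Without ESC library 4, the lowest, the day 2 difference passed the test as well (-1.37, limma adjusted p = 0.032), as it did with DESeq2 on the recovered reads (-1.31, DESeq2 adjusted p = 0.0389). With every library as labelled the GK15 day 6 call was lost (-1.25, limma adjusted p = 0.284). A pseudocount of 10 put the difference of days 8 and 10 under the size threshold (-0.91). The values of BTAG positive libraries rest on 153 reads in all. They reached 8.77 RPM at most, so BCL2L11 passed the filter through the ESC, BT single positive and AG mid libraries alone. Fitted without the filter, it was still called lower on day 6 in both media and on days 8 and 10.

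BBC3 (102119825), a BH3-only target of p53, was 5.15, 12.5, 15.8 and 2.69 RPM in reporter ESC libraries 1 to 4. Up to day 6 the BTAG positive libraries held 3.51 to 18.4 RPM and overlapped with ESC. At days 8 and 10 in GK15, library 1 held 12.1 and 15.9 RPM, and library 2 held 19.5 and 43 RPM. The log2 difference of 1.32 ± 0.48 (limma adjusted p = 0.0296) did not pass without ESC library 1 (1.16), ESC library 4 (0.92), GK15 BTAG day 8 library 2 (1.16) or GK15 BTAG day 10 library 2 (0.97), nor without the filter on low genes (limma adjusted p = 0.0868). BIK (102129283), another BH3-only gene, was 0.43 to 2.2 RPM in reporter ESC and 0 to 2.79 RPM in BTAG positive cells, where 6 of 15 libraries were at 0. It was called in no comparison when fitted without the filter, and a difference was not detectable at this depth.

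After day 2 the levels of 3 members changed with the days among the 15 BTAG positive libraries, with medium as a term. Of 6 members tested (BCL2L11 stayed under the filter among these libraries), 2 were called rising and 1 falling (limma adjusted p under 0.05 and at least 1 log2 unit per 8 days), beside 19.4% of 9826 genes (7.14% rising and 12.2% falling). Under median-of-ratios scaling the rising share of all called genes moved from 36.9% to 51.5%, while BMF no longer passed (-0.11, limma adjusted p = 0.0639) and BBC3 did (0.19, limma adjusted p = 0.0358). BCL2L1 rose by 0.26 ± 0.06 log2 units per day (limma adjusted p = 0.00454) and PMAIP1 by 0.25 ± 0.06 (limma adjusted p = 0.0032). BMF fell by 0.13 ± 0.04 per day (limma adjusted p = 0.0287), and its lowest values, 17.99 and 19.6 RPM, were those of day 10. Days 8 and 10 were read in GK15 alone. Over days 2 to 6, where both media have libraries, a range chosen after seeing the data, BCL2L1 rose by 0.47 and PMAIP1 by 0.23 log2 units per day, and BMF did not pass (-0.07, limma adjusted p = 0.48). With edgeR or DESeq2 on the recovered reads BMF did not pass either, and its call was lost without any 1 of 6 libraries: aRB27 BTAG day 2 library 1 or 2, aRB27 BTAG day 6 library 4, GK15 BTAG day 6 library 1, or GK15 BTAG day 10 library 1 or 2. The slope of BBC3 was 0.17 ± 0.07 (limma adjusted p = 0.0589). It passed with edgeR (0.21, edgeR adjusted p = 0.0309) and DESeq2 (0.21, DESeq2 adjusted p = 0.0177) on the recovered reads, with every library as labelled (0.19, limma adjusted p = 0.0265), and when either aRB27 BTAG day 4 library 1, aRB27 BTAG day 6 library 3, GK15 BTAG day 4 library 1 or GK15 BTAG day 10 library 1 was left out. With every library as labelled 4 members were called, and PMAIP1 was not among them (0.11, limma adjusted p = 0.237).

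**Figure D3:**
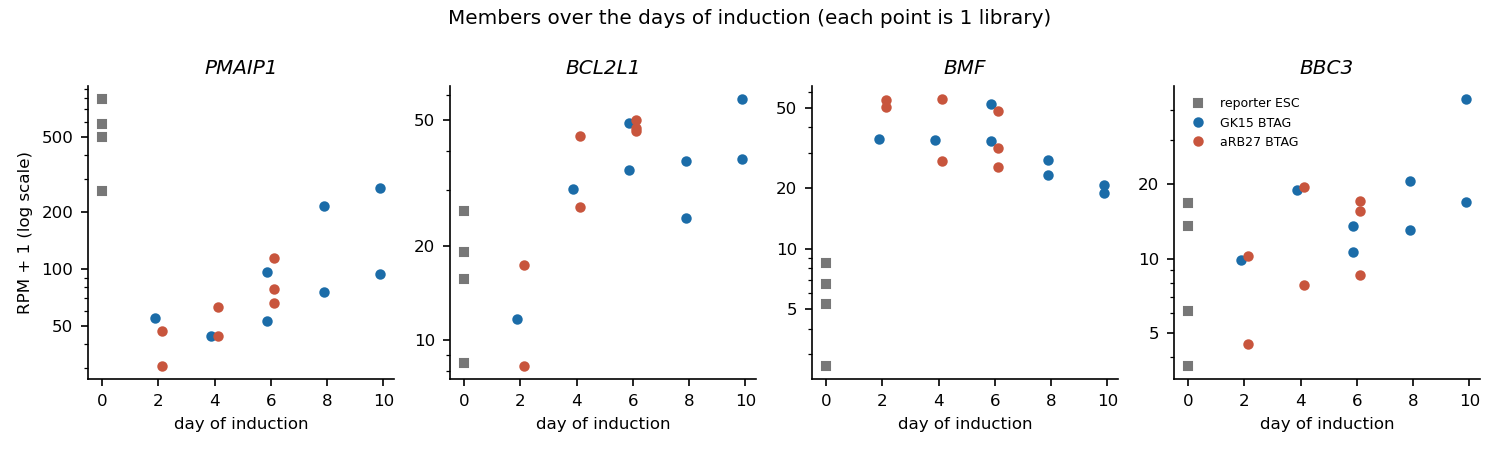
PMAIP1, BCL2L1, BMF and BBC3 (RPM + 1, log scale) by day of induction, 1 point per library, with reporter ESC drawn at day 0. PMAIP1 starts low at 29.8 to 53.9 RPM on day 2 and reaches 268 RPM in 1 library of day 10, and BMF declines to 17.99 and 19.6 RPM.

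Among BTAG positive libraries, PMAIP1 and BBC3 stood highest in library 2 of day 8 and of day 10. Leaving both out, an alternative chosen after seeing the data, gave 5 called members on days 8 and 10: MCL1 passed (log2 1.26) and BBC3 (0.81, limma adjusted p = 0.296) and BAX (1.19, limma adjusted p = 0.0738) did not. The slope then had 2 called members, without BMF.

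The members did not separate the media. At matched days 2 to 6, 0 of the 7 tested members were called between aRB27 and GK15 BTAG positive cells by limma, beside 0.0841% of all genes. No member had an unadjusted p under 0.05, while 735 genes did (6.87%), and edgeR and DESeq2 on the recovered reads called 0 members too. The log2 differences lay between -0.34 ± 0.44 for BBC3 and 0.22 ± 0.36 for BAX. GK15 kept a lone library on each of days 2 and 4, whose spread was taken from the other groups. At day 6 alone, with 2 and 3 libraries, 0 of 7 were called, beside 0.159% of all genes, and differences lay between -0.32 ± 0.50 for BMF and 0.23 ± 0.51 for PMAIP1. SEs of this size leave room for differences near 1 log2 unit.

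Between gates, BCL2L11 was the member that passed the test. In aRB27 it was 48.2 RPM on day 2 and 16.4 and 7.6 RPM on day 4 in BT single positive cells, against 5.84 and 8.77 RPM and 3.45 and 1.25 RPM in BTAG positive cells of the same days. On each day the gates did not overlap. The log2 difference averaged over the days was 2.27 ± 0.44 (limma adjusted p = 0.000972), and 1 of 7 tested members was called, beside 15% of all genes (8.03% higher). It was called in each of 6 fits that left out 1 library. The lone BT single positive library of day 2, the highest in BCL2L11, was never left out. Without it the comparison cannot be fitted, so these fits do not cover its weight. With every library as labelled, the same difference missed the threshold (limma adjusted p = 0.0523). PMAIP1 (16.6 to 47.8 RPM in BT single positive cells) and BMF (11.5 to 43.1 RPM) overlapped with BTAG positive cells, with log2 differences of -0.34 ± 0.44 and -0.59 ± 0.44. BBC3, at 2.99 to 4.7 RPM, differed by -1.06 ± 0.54 (limma adjusted p = 0.201). Endoderm markers moved with this gate: 7 of 8 tested members of a list of 10 rose, and their summed level was 1589 to 3213 RPM in the 3 BT single positive libraries against 37.4 to 538 in the 4 BTAG positive ones. A list of 6 ESC markers moved with the gate as well: they summed to 806 to 1101 RPM in BT single positive cells against 176 to 512 in the 4 BTAG positive libraries. Among them SFRP1 and DNMT3B rose and SOX2 fell. The part of either list in the BCL2L11 difference was not tested.

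In AG mid positive cells BCL2L11 was higher as well. It was 20.2 RPM in aRB27 on day 2 and 22.9 RPM in GK15 on day 4, against 5.84 and 8.77 RPM and 4.0 RPM in the matched BTAG positive libraries. Both values lay within the range of reporter ESC. The log2 difference was 1.82 ± 0.52 (limma adjusted p = 0.0264), and 1 of 7 tested members was called, beside 11.1% of all genes (5.05% higher). Each AG mid group is a lone library, assumed to vary like the other groups, and without aRB27 BTAG day 2 library 1 the difference did not pass (1.69, limma adjusted p = 0.072). The GK15 AG mid library carries the title code MS134 and its matched BTAG library MS162, so code and gate cannot be told apart there, and with the code as a covariate the difference did not pass (1.55, limma adjusted p = 0.0785). It also did not pass with a pseudocount of 0.1 (1.99, limma adjusted p = 0.0564) or with every library as labelled (0.66, limma adjusted p = 1). The 2 AG mid libraries were unlike in PMAIP1 (177 RPM in aRB27 day 2 and 33.3 in GK15 day 4) and in BCL2 (0.41 and 5.38 RPM, the latter from 36 reads and within the ESC range). BBC3 was 5.36 and 2.24 RPM, with a log2 difference of -1.32 ± 0.64 that did not pass (limma adjusted p = 0.224). Mesoderm and stroma markers summed to 2603 and 3265 RPM in AG mid cells against 164 to 568 in the matched BTAG positive libraries, and 5 of 7 tested members of a list of 10 rose, while HAND2 and POSTN were at 0 in the latter and POSTN and COL3A1 in the AG mid library of day 2. Their part in the difference was not tested.

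**Figure D4:**
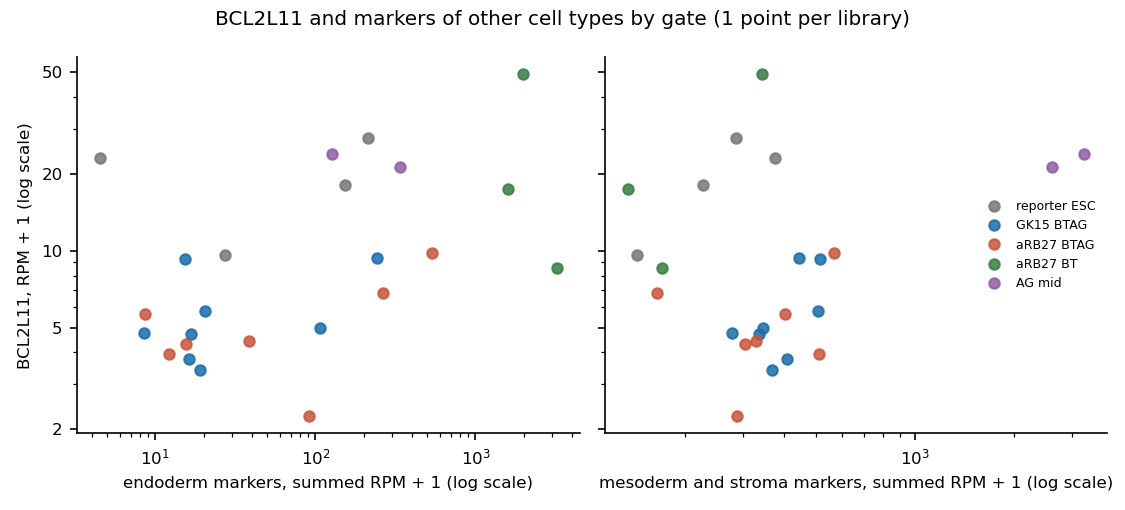
BCL2L11 (RPM + 1, log scale, vertical axis) against the summed level of 10 endoderm markers (left) and 10 mesoderm and stroma markers (right), 1 point per kept reporter-line library, coloured by gate. BT single positive libraries, at 7.6 to 48.2 RPM of BCL2L11, have the highest endoderm sums, and the AG mid libraries, at 20.2 and 22.9 RPM, the highest mesoderm and stroma sums.

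ESC of the lines without transgenes gave the spread of the members in ESC outside the reporter lines, as a description. PMAIP1 was 468 and 80.5 RPM in the CMK6 libraries, 596 in line 656, 615 in 681F and 293 in line 22. The second CMK6 library was thus as low as BTAG positive cells. BMF was 15.5 and 7.58 RPM in CMK6, 3.94 in 656, 8.41 in 681F and 16.1 in line 22, below the lowest BTAG positive library (17.99 RPM) by a small margin. MCL1 was 105 to 126 RPM in these 5 libraries, lower than in any reporter ESC library. These 5 carry the title codes MS116 or MS173 and the reporter ESC MS134 or MS162, so code and transgene cannot be told apart. BCL2L11 spanned 6.37 to 43.1 RPM and BCL2 0 to 8.04 RPM, both with values as low as in BTAG positive cells, in CMK6 library 1 for BCL2. BAX spanned 2.73 to 13.6 RPM and BBC3 0 to 23.9 RPM, both overlapping with BTAG positive cells of days 8 and 10. BIK was 1.97 to 9.1 RPM. BCL2L1 was 7.28 to 20.8 RPM, below every kept BTAG positive library from day 4 on.

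In mouse germ cell-like cells, 6 of the 10 orthologs passed the filter, and 0 were called between days 4 and 6 by limma, beside 2.6% of 8246 genes. With edgeR and with DESeq2 on the recovered reads 0 were called too, and 0 of the 6 had an unadjusted limma p under 0.05, while 1592 genes did (19.3%). Mcl1 (17210; GRCm38 chr3:95658788-95663176) was 243 and 255 RPM on day 4 and 283 and 271 on day 6. Bcl2l11 (12125; chr2:128126038-128162547) was 64.9 and 41.98 RPM, then 44.5 and 43.2. The log2 differences were 0.15 ± 0.11 and -0.25 ± 0.22, and neither passed the test (limma adjusted p = 0.503 and 0.586). Bmf (171543; chr2:118528757-118549687) was 24.3 and 15.9 RPM, then 15.95 and 11.7. Bcl2l1 (12048; chr2:152780668-152831728) was 13.3 and 12.4 RPM, then 8.81 and 8.48. Its day 6 values lay below those of day 4, but the difference of -0.52 ± 0.31 did not pass (limma adjusted p = 0.404). Pmaip1 was 34.9 and 12.4 RPM, then 24.8 and 26.2, and Bax (12028; chr7:45461697-45466898) 92.7 and 92.4, then 70.5 and 129.6. Bak1, the effector that is not analysed in monkey, was 2.65 in both libraries of day 4 and 4.2 and 2.83 RPM on day 6. Bcl2 was at 0 to 0.44 RPM, Bbc3 at 4.42 to 8.07 RPM and Bik at 0.88 to 4.44 RPM. Mouse ESC were not analysed here, so the earlier step has no mouse counterpart.

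Of a list of 13 further BCL2-like genes, 9 were tested. On day 2, 1 was called higher, beside 10.5% of all genes. On day 6, 2 were called higher and 1 lower in each medium, and likewise on days 8 and 10, beside 24.8% (GK15 day 6), 25.9% (aRB27 day 6) and 31.1% (days 8 and 10) of all genes called in either direction. BID, the BH3-only link from death receptors to mitochondria, was 53.1 ± 10.1 RPM (SD, n = 4) in reporter ESC and 21.4 ± 5 in BTAG positive cells of day 6 (n = 5), with log2 differences of -1.46 ± 0.30 in GK15 and -1.17 ± 0.27 in aRB27 (limma adjusted p = 0.00104 and 0.00192). BCL2L2 (BCL-W), a further guardian, was 24.4 ± 4.88 RPM in ESC and 75.8 ± 12.5 on days 8 and 10 (log2 1.60 ± 0.19, limma adjusted p = 1.47e-06). BCL2L14 was 1.03 ± 1.19 RPM in ESC and 29.7 ± 18.5 on days 8 and 10 (log2 3.96 ± 0.64, limma adjusted p = 5.08e-05), and BNIP3L, a receptor for the removal of mitochondria, passed on day 6 in both media (log2 1.34 ± 0.31 and 1.29 ± 0.27). The median log2 difference of the 9 was 0.16 on days 8 and 10, beside -0.09 over all genes.

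Downstream of the mitochondria, 13 of 21 listed apoptosome, caspase and inhibitor genes were tested. BIRC2, an inhibitor of apoptosis protein, rose from 32.2 ± 3.45 RPM in ESC to 98.2 ± 7.22 on day 2 (n = 3; log2 1.61 ± 0.23, limma adjusted p = 2.88e-05). It was the single call of the list there, beside 16% of all genes called (10.5% higher). On day 6 BIRC2 and CASP6, an executioner caspase, rose in both media, and in GK15 CASP6 was 124 ± 23.2 RPM against 29.9 ± 3.23 (log2 2.01 ± 0.27, limma adjusted p = 1.26e-05). BIRC5 (survivin), which also acts in mitosis, fell from 159 ± 22.2 RPM to 52.5 ± 11.8 on days 8 and 10 (log2 -1.59 ± 0.17, limma adjusted p = 4.47e-07). In AG mid cells BIRC2 fell relative to BTAG positive cells (log2 -1.27 ± 0.27, limma adjusted p = 0.00286). On day 6, 2 of the 13 were called in GK15 and 3 in aRB27, beside the 24.8% and 25.9% of all genes. On days 8 and 10, 3 of the 13 were called, beside 31.1% of all genes. Between AG mid and BTAG positive cells 2 of the 13 were called, beside 11.1% of all genes.

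The transcription factor p53 is known to activate BBC3, PMAIP1 and BAX, and genes of its pathway were called in both directions on day 2. Of 20 listed p53 pathway genes 19 were tested. On day 2, 3 were called higher and 6 lower than in ESC, beside 10.5% and 5.51% of all genes. On day 6, 2 of the 19 were called in GK15 and 3 in aRB27, beside 24.8% and 25.9% of all genes called in either direction. For days 8 and 10, 5 were called higher and 0 lower, beside 15.4% and 15.7%. CDKN1A, the p53-induced inhibitor of the cell cycle, was 32.5 ± 16 RPM in ESC and 3.97 ± 5.71 on day 2 (log2 -3.42 ± 0.61, limma adjusted p = 0.0004), and FAS, a death receptor, was 20.4 ± 15.6 and 1.67 ± 0.679 RPM (log2 -2.77 ± 0.48, limma adjusted p = 0.000279). TP53INP1 and PERP rose on day 2 (log2 3.35 ± 0.47 and 2.35 ± 0.42). Over the days in BTAG positive cells 10 of 18 tested genes rose and 3 fell, beside 7.14% and 12.2% of all genes. CDKN1A rose by 0.62 ± 0.10, PHLDA3 by 0.52 ± 0.11 and FAS by 0.51 ± 0.09 log2 units per day (limma adjusted p = 0.000235, 0.00286 and 0.000419).

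FOXO factors are known to activate BCL2L11, and BBC3 as well. Of 8 genes listed as FOXO factors and targets, 7 were tested. On day 6, 4 were called in GK15 and 5 in aRB27, beside 24.8% and 25.9% of all genes. Whether the listed genes, DDIT3 and TRIB3 among them, answer to FOXO factors in these cells was not tested. On day 6 FOXO3 and SESN3 rose and FOXO1 and TRIB3 fell in both media, and TXNIP fell in aRB27. FOXO3 was 29.7 ± 10.98 RPM in ESC and 73.98 ± 12.2 on day 6 in GK15 (log2 1.37 ± 0.30, limma adjusted p = 0.00149). In BT single positive cells, 3 of the 7 were called, beside 15% of all genes: FOXO3 fell relative to BTAG positive cells, to 26.5 ± 2.09 RPM (log2 -1.12 ± 0.27, limma adjusted p = 0.00579), SESN3 fell (-1.69 ± 0.37) and DDIT3 rose (1.61 ± 0.49). The part of these factors in the differences of BCL2L11 was not tested.

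The genes whose levels most resembled the 4 members called most often were named by the Pearson correlation of log2(RPM + 1) over the 24 libraries. These libraries differ in group and depth, and ESC library 2 differs in line, so the correlations include differences between groups. PMAIP1 was most like CHST8, a sulfotransferase (r = 0.877; 37.6 RPM in ESC and 1.5 in BTAG positive cells on average), and RRAGD, a GTPase of the mTORC1 pathway (r = 0.855). BMF was most like WNT5B, a WNT ligand (r = 0.879; 5.27 and 163 RPM), and ROR2, a WNT receptor (r = 0.87). BCL2L11 was most like RASSF8 (r = 0.885) and GLUL, glutamine synthetase (r = 0.878), and GLUL was 128 RPM in ESC, 27.5 in BTAG, 135 in BT and 199 in AG mid cells. BCL2L1 was most like DCDC2 (r = 0.851) and SLC35A2, a sugar nucleotide transporter (r = 0.849; 32.2 RPM in ESC and 114 in BTAG positive cells). These are the highest of all tested genes by construction, entries whose symbol starts with LOC left aside.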

How the data were processed

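The authors deposited 3′ RNA-seq values as 1 table of RPM per species, per the file headers and names. The submitters' processing notes list the tools Cufflinks 2.2.0, TopHat 1.4.1 and cutadapt 1.3, with GRCm38 for mouse. No source used here gives the monkey build, and no monkey coordinates are printed; mouse positions are from GENCODE on GRCm38. The low values of a library are whole multiples of what 1 read is worth: 99.4% to 99.8% of monkey values were whole within 0.1 steps, and the reads recovered this way served count tests as alternatives. All sample columns were used; 96 spike-in entries of the mouse table were not. The kept libraries held 1.07 to 6.76 M reads and the mouse libraries 2.26 to 2.48 M.

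Groups followed the labels, libraries were numbered in accession order, and 9 libraries of doubtful label were set aside. Log2(RPM + 1) values were fitted in R 4.3.3 with limma 3.58.1 (moderated linear model). Genes needed 10 RPM or more in 2 or more libraries, and p-values were adjusted over all genes passing this filter. The 24 kept reporter-line libraries entered 1 fit, and the slope over days came from the 15 BTAG positive libraries with medium as a term. Fold changes on this scale understate the change of low genes. As alternatives the pseudocount (0.1 or 10), the filter (none, or a mean of 20 RPM), the scaling (median of ratios), the tool (DESeq2 1.42.0 or edgeR 4.0.16, with its quasi-likelihood test), the set of libraries (all as labelled, those with the title code MS162, or all but 1) and a title code covariate were changed one at a time. The scripts were tested on simulated data.

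The members and gene lists were chosen with earlier results of these data known. Every member is named. From other lists up to 4 called genes with the largest differences are named. For the 4 members called most often the 2 genes of highest correlation are named, entries whose symbol starts with LOC left aside. Among 703 pairs of monkey libraries 0 had identical values. How the counting treated strand and reads with several matches is not described in the sources used here. Some genes of the other lists are not reported here.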

Additional observations from a re-analysis of the deposited data

How the results depend on the processing

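Of 999 values recomputed under the alternatives, 897 kept their direction and their side of the threshold. With every library as labelled, the called members numbered 1 on day 2, 0 on day 6 in GK15, 3 on days 8 and 10, 0 for BT and 0 for AG mid against BTAG. On days 8 and 10 a pseudocount of 10 gave 2 and a mean of at least 20 RPM gave 3. For AG mid against BTAG, a pseudocount of 0.1, a mean of at least 20 RPM and the title code as a covariate gave 0, and leaving out a library gave 0 to 1. For BT against BTAG a mean of at least 20 RPM gave 0, since that filter removes BCL2L11 from the test. In the MS162 libraries alone, where GK15 has 1 library on day 6, the calls of BCL2L1 (limma adjusted p = 0.22) and BCL2L11 (0.0692) there were lost.

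The 30 values that changed sign belong to members that were not called, and are log2 differences. On day 2, BBC3 was 0.12 with the title code and 0.054 in MS162 libraries, and ran from -0.45 to 0.28 with a library left out. BAX ran from -0.054 to 0.67 on day 2 and from -0.016 to 0.74 on day 6 in GK15, below 0 without ESC library 4. Between media, MCL1 was 0.052 and BBC3 0.33 as labelled. Leaving out a library there gave -0.024 to 0.32 for BMF, -0.030 to 0.32 for BCL2L1 and -0.15 to 0.13 for PMAIP1. PMAIP1 was 0.055 with median-of-ratios scaling, 0.054 with edgeR, 0.066 with DESeq2, 0.0054 with the title code and 0.15 in MS162 libraries. For BT against BTAG, BCL2L1 ran from -0.42 to 0.11. For AG mid, BMF was -0.24 as labelled and -0.16 with the title code, and as labelled BCL2L1 was 0.20 and BBC3 0.014. In mouse the ranges were -0.56 to 0.061 for Bcl2l11, -0.39 to 0.48 for Bax and -0.44 to 0.99 for Pmaip1. The causes were not tested.

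Leaving out both GK15 BTAG day 8 library 2 and day 10 library 2, and the slope over days 2 to 6, were alternatives added after seeing the data. No paired analysis was possible because the labels give the libraries no replicate numbers, and no label ties the running numbers in the titles to a shared induction. A group with a lone library has no value without it, and mouse was not refitted with all libraries as labelled or by title code. Levels under 5 RPM rest on few reads in the shallower libraries, which limits BCL2, BIK and, in BTAG positive cells, BCL2L11.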
